A study of Mus musculus with 9 samples.

Results

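Transcripts of 10 genes of the brain's chondroitin sulfate proteoglycan matrix were followed in mouse ventral hippocampus: the lecticans Vcan, Bcan, Ncan and Acan, the link proteins Hapln1 and Hapln4, the crosslinker Tnr, the phosphatase proteoglycan Ptprz1, the matrix protease Adamts4 and the precursor cell proteoglycan Cspg4. They were chosen by name for their roles, with earlier results of these data known, and are 10 of the 40213 genes in each count file. All 10 were among the 16106 genes with enough counts to be tested. The 9 libraries came from wild-type male C57BL/6J mice that were 8 weeks old when housed, and every library carries batch 1. The 3 sedentary controls (SED) had no treatment. The 3 stress-susceptible mice (SUS) were held in tubes for 2 hours a day over 14 days, and the 3 exercised susceptible mice (SUS_LE) had the same restraint and then 2 weeks of low-intensity treadmill running. The labels call these mice stress-susceptible but do not say how susceptibility was scored, so the SUS groups may be mice that were selected as well as stressed. The libraries analysed here include no mice exercised without restraint, and library totals were 14172344 to 15582304 counts.

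Lecticans are core proteins that carry chondroitin sulfate chains, bind hyaluronan at one end and tenascin-R at the other, and are fixed to hyaluronan by link proteins. Condensed around some neurons they form perineuronal nets, which in the hippocampus enclose parvalbumin interneurons and pyramidal cells of CA2 and are known for limiting synaptic plasticity. Oligodendrocyte precursor cells make a looser matrix of their own, in which versican, the phosphatase proteoglycan and the Cspg4 product NG2 are prominent.

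By edgeR, 0 of 10 members passed the adjusted threshold in any comparison, as did 0% of all tested genes. At an unadjusted edgeR p under 0.05 there were 3 members in SUS against SED (13.1% of all genes), 4 in SUS_LE against SUS (13.7%) and 0 in SUS_LE against SED (6.64%), and DESeq2 called Ptprz1 in SUS against SED. What stood out among the 10 genes was Vcan, Hapln1 and Ptprz1, which had their lowest values in the SUS libraries, below every SED and every SUS_LE library. Vcan was 20.9 ± 1.12 CPM in SUS (CPM is the count relative to library size; SD, n = 3), against 26.8 ± 3.75 in SED and 24.6 ± 1.13 in SUS_LE. This pattern, SUS under both SED and SUS_LE without overlap, was met by 3 of 10 members and by 3.73% of all tested genes. Bcan, Ncan, Acan, Hapln4, Tnr, Adamts4 and Cspg4 did not show it. Differences were tested with edgeR's quasi-likelihood test over all genes, with Benjamini-Hochberg adjustment and a threshold of 0.05.

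The members covered a wide range of abundance. Per kilobase of the longest annotated transcript, Bcan had a mean level of 40.2 CPM per kb over the 9 libraries (range 37.1 to 50.4). Ptprz1 followed at 37.5 CPM per kb (32.7 to 40.7), and these ranges overlapped. Ncan, at 28.1 CPM per kb (26.2 to 32.1), lay below every Ptprz1 value and above every value of Tnr, at 23.5 (21.8 to 25.4). Hapln4, at 21.0 CPM per kb (17.0 to 23.1), overlapped Tnr. The other link protein, Hapln1, had a level of 4.82 CPM per kb (4.33 to 5.31), under every Hapln4 value. Adamts4, at 3.91 CPM per kb (3.30 to 4.59), overlapped Hapln1, and Cspg4, at 2.47 (2.01 to 2.90), overlapped Vcan, at 1.94 (1.58 to 2.47). Aggrecan, the proteoglycan most used to mark perineuronal nets, was the lowest at 0.477 CPM per kb (0.324 to 0.662). The order rests on the longest GENCODE transcript of each gene, and shorter isoforms in use would raise a gene's level per length.

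**Figure D1:**
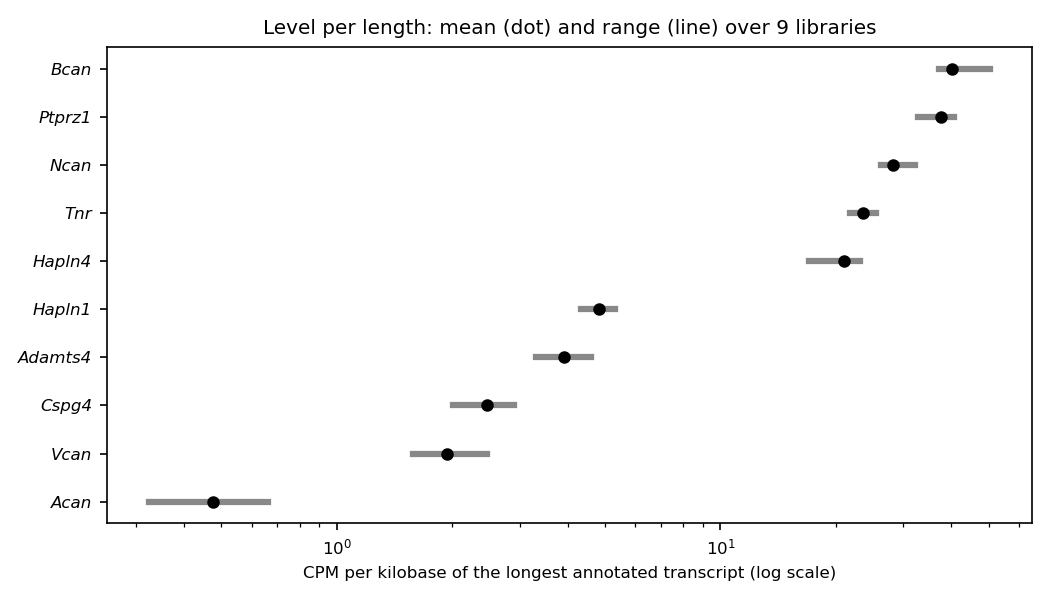
Mean (dot) and range (line) over the 9 libraries of each member's CPM per kilobase of its longest annotated transcript, on a log axis. Bcan and Ptprz1 lead at 40.2 and 37.5 CPM per kb, and Acan is last at 0.477.

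Vcan encodes versican, the largest lectican of brain matrix, found in the diffuse matrix and at nodes of Ranvier. In replicates 1 to 3, SED libraries held 26.6, 23.2 and 30.7 CPM of Vcan, SUS libraries 21.4, 21.8 and 19.7 CPM and SUS_LE libraries 24.8, 25.7 and 23.4 CPM. All SUS libraries were below all others, and SED 2 and SUS_LE 3 came nearest to them. The log2 fold change of SUS against SED was −0.36 (SE 0.10, 95% interval −0.56 to −0.16), with an edgeR p of 0.00142 and an adjusted p of 0.155. SUS_LE against SUS gave a log2 fold change of 0.23 (SE 0.10), with an edgeR p of 0.0247 and an adjusted p of 0.291. SUS_LE and SED overlapped, with a log2 fold change of −0.12 (SE 0.09). These comparisons share the SUS or the SED libraries, so their values are not independent of each other. Without a filter on low counts, the edgeR adjusted p of Vcan in SUS against SED was 0.0197, a setting in which 297 genes passed.

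Vcan lies next to Hapln1 on chromosome 13 in the RefSeq annotation, and each of the other lecticans also has a link protein gene as its neighbour (Hapln4 beside Ncan, Hapln2 beside Bcan, Hapln3 beside Acan). Hapln1 encodes the link protein that fixes lecticans to hyaluronan in perineuronal nets and in cartilage. Hapln1 values of replicates 1 to 3 were 30.3, 26.6 and 28.0 CPM in SED, 25.4, 25.9 and 24.7 CPM in SUS and 29.4, 29.0 and 28.5 CPM in SUS_LE. The SUS values lay under both other groups, although SED 2 and SUS 2 were only 26.6 and 25.9 CPM. The log2 fold change was −0.16 (SE 0.08) in SUS against SED, with an edgeR p of 0.0475 and an adjusted p of 0.372. Between SUS_LE and SUS it was 0.19 (SE 0.07), with an edgeR p of 0.0193 and an adjusted p of 0.272. In the other pairs the neighbours had no such shared pattern: Hapln2 was 13.3, 11.9 and 14.1 CPM on average in SED, SUS and SUS_LE, and Hapln3 was 0.557, 0.551 and 0.762 CPM, with overlapping SED and SUS libraries in both. Hapln2 and Hapln3 were added to the genes named here after their values had been seen.

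Ptprz1 encodes a receptor tyrosine phosphatase of astrocytes and oligodendrocyte precursor cells, whose shed or spliced extracellular part is phosphacan, a soluble proteoglycan of the matrix. Counts per gene do not separate these forms. The Ptprz1 level was 305, 315 and 328 CPM in the SED mice (replicates 1 to 3), 264, 287 and 284.5 CPM in the SUS mice and 312, 306 and 318 CPM in the SUS_LE mice. The lowest SED library was above the highest SUS library, and the SED and SUS_LE ranges overlapped. It had the smallest spread of the 10 genes, with a coefficient of variation within groups of 3.49%, against 22.6% for Acan. The log2 fold change was −0.18 (SE 0.05, 95% interval −0.29 to −0.07) in SUS against SED, with an edgeR p of 0.00215 and an adjusted p of 0.165. Between SUS_LE and SUS it was 0.16 (SE 0.05), with an edgeR p of 0.0049 and an adjusted p of 0.174, and in SUS_LE against SED −0.02 (SE 0.05).

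DESeq2 put Ptprz1 in SUS against SED past the threshold, at an adjusted p of 0.0265, the only member it called in any pairwise comparison. It called 3.35% of the genes to which it gave an adjusted p there, and Vcan, Hapln1, Acan, Adamts4 and Cspg4 were given none. In SUS_LE against SUS the DESeq2 adjusted p of Ptprz1 was 0.0515, where 3.28% of such genes were called. The call in SUS against SED was lost without SED 1 (DESeq2 adjusted p 0.0954), SED 2 (0.0796), SED 3 (0.119), SUS 1 (0.0945), SUS_LE 1 (0.0613) or SUS_LE 2 (0.0535). It was also lost without independent filtering of low genes (DESeq2 adjusted p 0.0756) and with GC and length trends removed (DESeq2 adjusted p 0.322, log2 fold change −0.09).

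Promoters of Vcan and Ptprz1 are shown because these genes had the smallest p values of the 10 and low values in the same libraries. Each is the 250 bases before the annotated start, 5′ to 3′ on the gene's strand, from RefSeq on GRCm38.p6, with capitals for the GC box GGGCGG on either strand. The Vcan promoter is at chr13:89742513-89742762 on the minus strand and that of Ptprz1 at chr6:22875252-22875501 on the plus strand.
Vcan: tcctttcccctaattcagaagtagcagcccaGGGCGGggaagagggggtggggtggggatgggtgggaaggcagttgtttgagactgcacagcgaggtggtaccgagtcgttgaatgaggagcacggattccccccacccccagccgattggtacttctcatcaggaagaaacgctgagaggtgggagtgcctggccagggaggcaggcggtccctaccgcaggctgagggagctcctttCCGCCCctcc
Ptprz1: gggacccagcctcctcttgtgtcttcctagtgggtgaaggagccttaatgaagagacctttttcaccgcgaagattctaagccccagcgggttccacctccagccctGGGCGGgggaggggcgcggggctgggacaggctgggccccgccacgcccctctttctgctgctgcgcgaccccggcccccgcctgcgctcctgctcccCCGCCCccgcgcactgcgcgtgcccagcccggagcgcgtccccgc
Each holds 2 GC boxes, beginning at bases −219 and −10 in Vcan and −143 and −45 in Ptprz1, counted from the start. The Ptprz1 promoter is richer in GC (71.6%, 22 CpG) than that of Vcan (62.4%, 10 CpG), and the median over 32851 RefSeq promoters is 52.4% with 6 CpG. GC boxes are in 32.7% of those promoters. The 250 bases before the RefSeq start of Hapln1 lie within an annotated GENCODE transcript of that gene. They are 54.4% GC with 2 CpG and hold no GC box. Some of those before Ncan and Cspg4 are also within a transcript. Of the 8 members with a RefSeq promoter, none has within it the glucocorticoid response element, searched as GNACA and TGTNC 3 bases apart (in 0.387% of all promoters), AP-1 TGANTCA (6.75%), TGACG of cyclic AMP elements (17.8%) or the SOX motif AACAAT (9.42%) on either strand. TATAAA (12.4% of promoters) is in Ncan alone, and CAGCTG (13.0%) in Ncan and Acan.

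**Figure D2:**
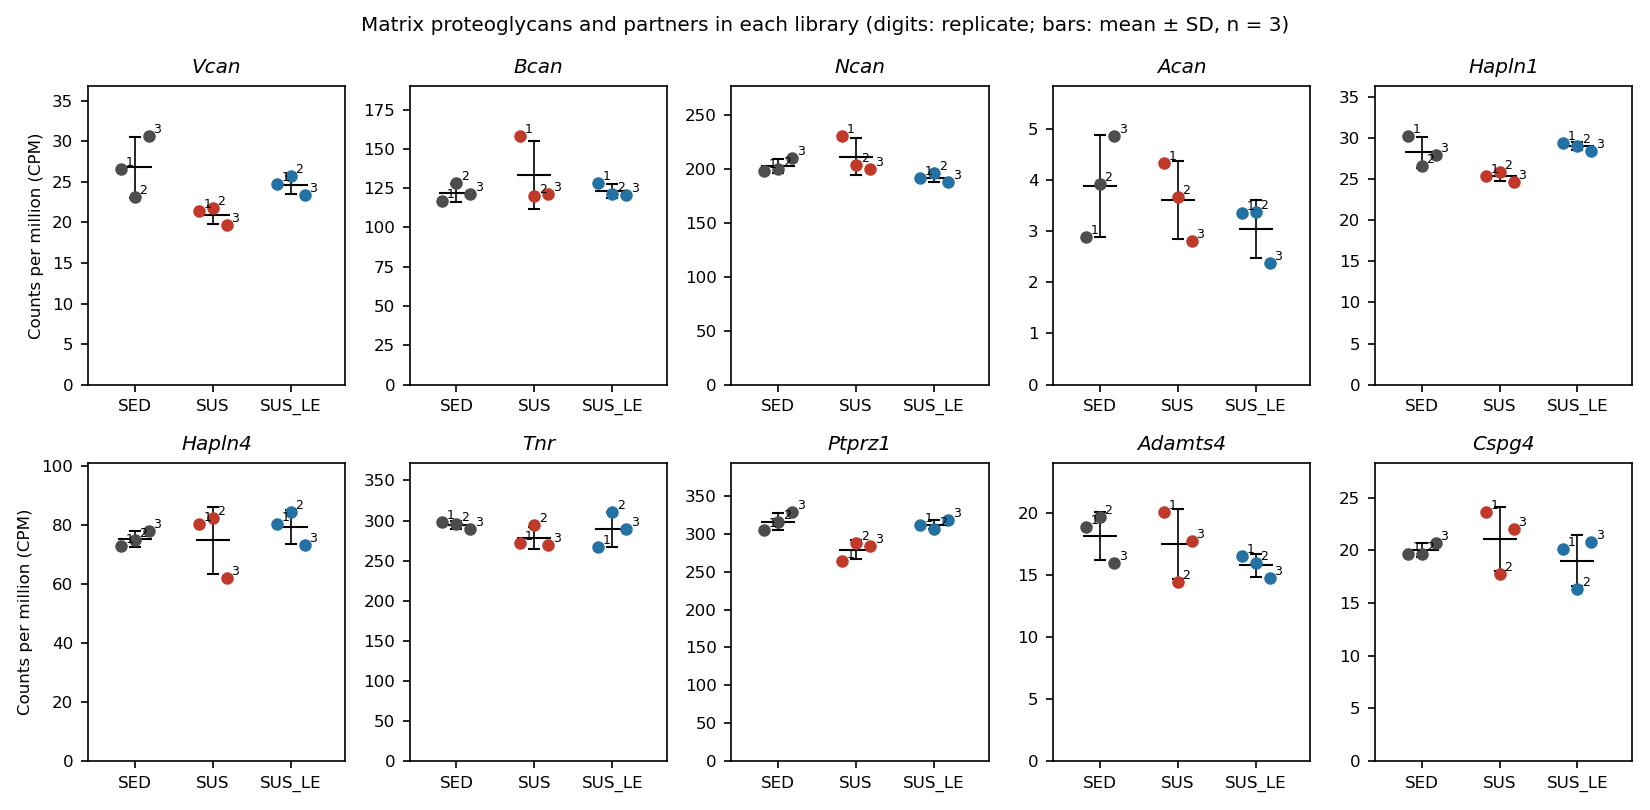
CPM of each member in the 9 libraries (points, with the replicate number), with the group mean and SD as a bar (n = 3) and axes that start at 0. The SUS points of Vcan, Hapln1 and Ptprz1 lie under all SED and SUS_LE points, and Bcan and Ncan each have SUS 1 as their highest point.

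The other lecticans did not share the low SUS values. Bcan encodes brevican, a lectican found mainly in the nervous system and made in large part by glia. In replicates 1 to 3, SED libraries held 117, 128 and 121 CPM of Bcan, SUS libraries 158, 120.1 and 121 CPM and SUS_LE libraries 128, 121 and 121 CPM. SUS 1 alone was high, and the groups overlapped. The log2 fold change of SUS against SED was 0.13 (SE 0.09, edgeR adjusted p 0.615) and became −0.02 without SUS 1.

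Ncan encodes neurocan, a lectican of neurons and astrocytes. Ncan values of replicates 1 to 3 were 198, 199.8 and 211 CPM in SED, 231, 204 and 199.7 CPM in SUS and 192, 196 and 188 CPM in SUS_LE. All SUS_LE libraries were below all SED and SUS libraries, by a small margin (196 against 198 CPM at the nearest), and SUS 1 was again the highest. SUS_LE against SUS gave a log2 fold change of −0.14 (SE 0.06), with an edgeR p of 0.0231 and an adjusted p of 0.287. SUS_LE against SED gave −0.08 (SE 0.06, edgeR p 0.175).

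Acan encodes aggrecan. The Acan level was 2.88, 3.92 and 4.87 CPM in the SED mice (replicates 1 to 3), 4.33, 3.68 and 2.81 CPM in the SUS mice and 3.35, 3.38 and 2.38 CPM in the SUS_LE mice. The groups overlapped throughout. Its log2 fold changes were −0.11 (SE 0.23) in SUS against SED, −0.25 (SE 0.24) in SUS_LE against SUS and −0.36 (SE 0.24, 95% interval −0.85 to 0.14) in SUS_LE against SED. With intervals this wide, neither a sizeable drop nor no difference could be told at this depth.

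Hapln4 encodes a link protein of perineuronal nets. In replicates 1 to 3, SED libraries held 73.0, 74.9 and 78.2 CPM of Hapln4, SUS libraries 80.5, 82.4 and 62.0 CPM and SUS_LE libraries 80.4, 84.4 and 73.3 CPM. SUS 3 was the lowest of the 9 libraries and SUS_LE 2 the highest, and the groups overlapped. SUS against SED gave a log2 fold change of −0.01 (SE 0.09).

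Tnr encodes tenascin-R, the glycoprotein that crosslinks lecticans within the net. Tnr values of replicates 1 to 3 were 298, 296 and 289 CPM in SED, 272, 294 and 269.7 CPM in SUS and 266, 310.3 and 289.7 CPM in SUS_LE. SUS_LE held both the lowest and the highest library, and the groups overlapped. SUS against SED gave a log2 fold change of −0.08 (SE 0.06, 95% interval −0.20 to 0.04).

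Adamts4 encodes a protease that cleaves aggrecan and brevican and in the brain is expressed mostly by oligodendrocytes. The Adamts4 level was 18.9, 19.7 and 16 CPM in the SED mice (replicates 1 to 3), 20.1, 14.5 and 17.8 CPM in the SUS mice and 16.6, 16 and 14.8 CPM in the SUS_LE mice. SUS held the highest and the lowest library. SUS_LE against SED gave a log2 fold change of −0.21 (SE 0.12, edgeR p 0.096).

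Cspg4 encodes NG2, the transmembrane proteoglycan that marks oligodendrocyte precursor cells and pericytes. In replicates 1 to 3, SED libraries held 19.6, 19.6 and 20.7 CPM of Cspg4, SUS libraries 23.6, 17.7 and 22.0 CPM and SUS_LE libraries 20.1, 16.3 and 20.8 CPM. SUS 1 was the highest and SUS_LE 2 the lowest, and the groups overlapped. Its log2 fold changes were 0.08 (SE 0.11) in SUS against SED and −0.15 (SE 0.11) in SUS_LE against SUS.

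Over the comparisons, edgeR put 0 of 10 members past the adjusted threshold in each of the pairwise comparisons and in the test among all groups, and 0% of all tested genes in each. At an unadjusted edgeR p under 0.05 in SUS against SED there were 3 members, all with lower values in SUS, against 13.1% of all genes. In SUS_LE against SUS there were 4, Vcan, Hapln1 and Ptprz1 higher and Ncan lower in SUS_LE, against 13.7% of all genes. In SUS_LE against SED there were 0 of 10, against 6.64%. The test among all groups had 3 under 0.05 (by edgeR, 0.00393 for Ptprz1, 0.00496 for Vcan and 0.044 for Hapln1), against 13.5%. DESeq2 called only Ptprz1 among all groups (adjusted p 0.0272), where 3.97% of genes with an adjusted p were called, and 0 members in SUS_LE against SED, where 0.0994% were. Among all groups it gave no adjusted p to Vcan, Hapln1, Acan, Adamts4 and Cspg4.

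Groups of 3 did not overlap for 3 members lower in SUS than in SED (8.56% of all genes) and for 0 members higher (9.72%). Between SUS_LE and SUS they did not overlap for 3 members higher (8.61%) and 1 lower (8.38%). Between SUS_LE and SED they did not overlap for Ncan, lower (8.64%), and for 0 members higher (7.54%). The median log2 fold change of the 10 members was −0.07 between SUS and SED, −0.03 between SUS_LE and SUS and −0.05 between SUS_LE and SED, beside −0.00039, 0.0011 and 0.01 for all tested genes. The low SUS values of Vcan, Hapln1 and Ptprz1 were thus not shared by the other 7 members.

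**Figure D3:**
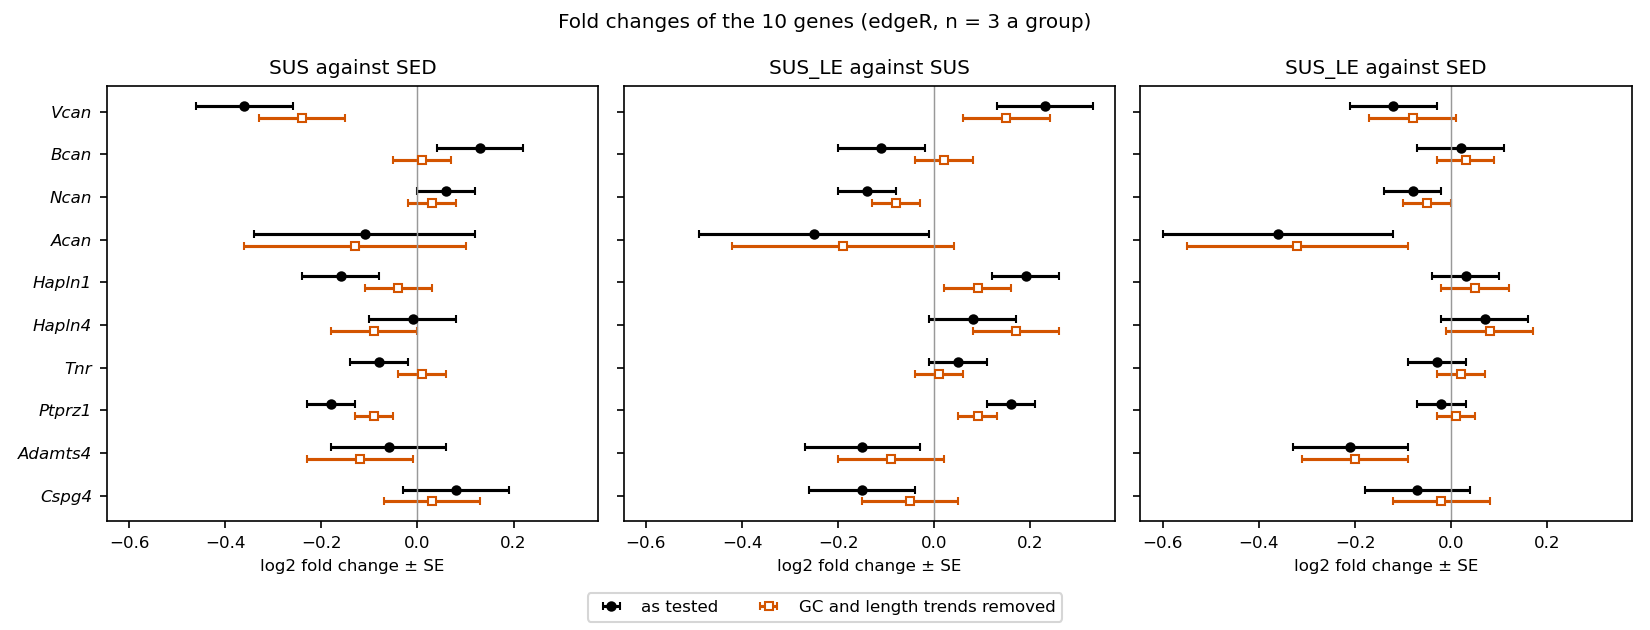
Log2 fold change with SE of each member in the 3 comparisons (edgeR, n = 3 a group), as tested (filled) and with per-library GC and length trends removed (open). Vcan, Hapln1 and Ptprz1 lie left of 0 in SUS against SED and right of 0 in SUS_LE against SUS, and each comes closer to 0 once the trends are removed.

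Fold changes went with the base composition of the transcripts across all genes, and the members were spread over that range. Hapln1 (39.8% GC), Vcan (43.7%), Ptprz1 (44.5%) and Tnr (47.7%) were under 50% GC, and all 4 had negative fold changes in SUS against SED and positive ones in SUS_LE against SUS. Of all tested genes under 50% GC, 35.4% had higher values in SUS than in SED and 66.5% higher values in SUS_LE than in SUS, with median log2 fold changes of −0.05 and 0.06. The other 6 members had 54.8% to 60.7% GC and 3 of them were higher in SUS than in SED, as were 65.1% of all genes at 50% GC or above. Of the same 6, 1 was higher and 5 lower in SUS_LE than in SUS, where 33.9% of those genes were higher.

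With GC and length trends removed within each library, SUS against SED gave Vcan a log2 fold change of −0.24 (SE 0.09, edgeR p 0.0184, adjusted p 0.454). Ptprz1 then had −0.09 (SE 0.04, edgeR p 0.0596) and Hapln1 −0.04 (SE 0.07, edgeR p 0.559). Between SUS_LE and SUS the values became 0.15 for Vcan, 0.09 for Ptprz1 and 0.09 for Hapln1. Each of these fold changes kept its sign and came closer to 0, and what the trend comes from was not tested. Removing the GC trend alone left Vcan at −0.30 (SE 0.09, edgeR p 0.00498, adjusted p 0.331) in SUS against SED.

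**Figure D4:**
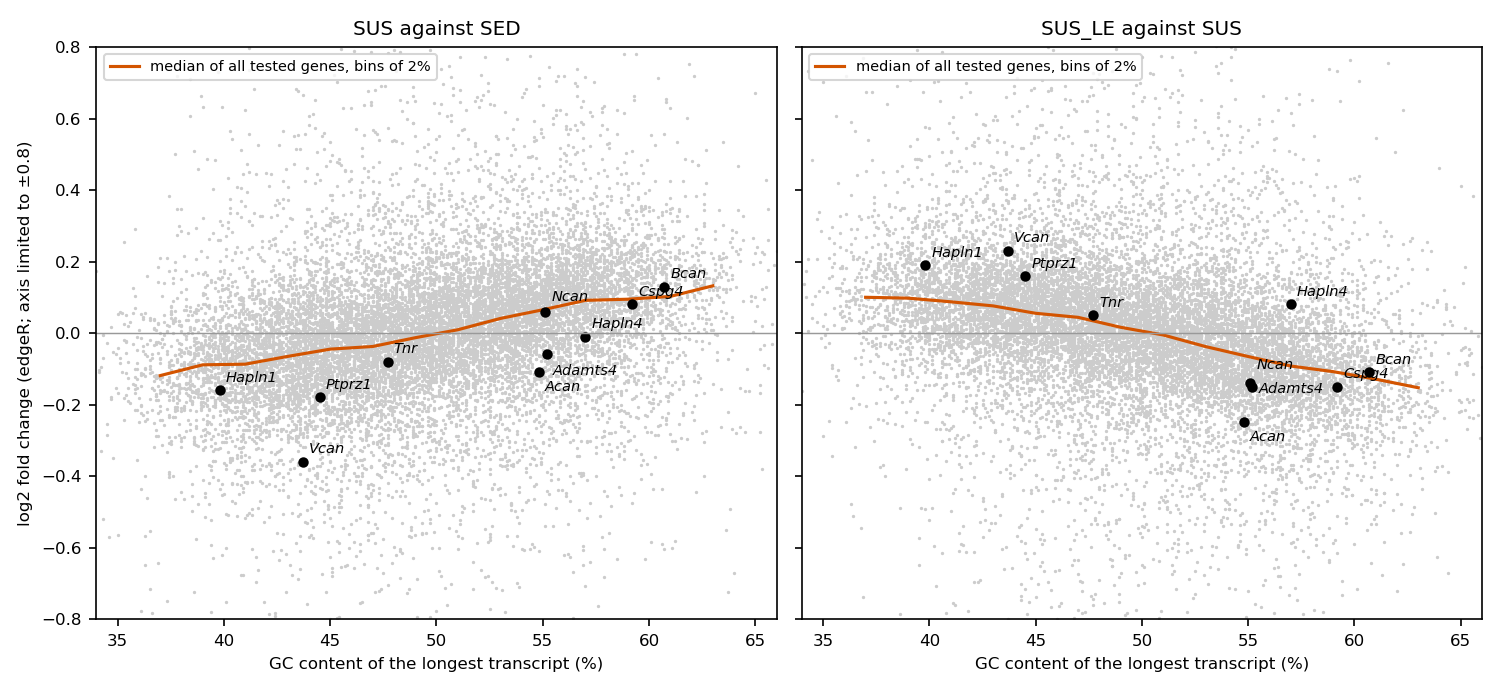
Log2 fold change (edgeR) against GC content of the longest transcript for all tested genes with a match (grey), their median in bins of 2% GC (line) and the 10 members (black). Vcan, Hapln1 and Ptprz1 lie on the side where the median of all genes is also below 0 in SUS against SED and above 0 in SUS_LE against SUS.

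Markers of the cells that make or carry this matrix were read in the same libraries. In bulk tissue, fewer cells of a type and less RNA per cell cannot be told apart. The summed level of 12 astrocyte markers was 5686 to 5960.3 CPM in SED, 5292 to 5482 CPM in SUS and 5775 to 6021 CPM in SUS_LE, with no overlap between SUS and the others. The list itself was divided: in SUS against SED 6 of 12 markers were higher and 6 lower (median log2 fold change −0.02). At an unadjusted edgeR p under 0.05, 2 were higher and 4 lower (13.1% of all genes). In the exercise comparison 8 were higher and 4 lower in SUS_LE than in SUS (median 0.08), with 5 higher and 1 lower at that unadjusted edgeR p (13.7% of all genes). Aqp4, the astrocyte water channel and 1 of the 6 lower markers, had log2 fold changes of −0.22 (SE 0.06) in SUS against SED and 0.26 (SE 0.06) in SUS_LE against SUS, with edgeR adjusted p of 0.165 and 0.116 and DESeq2 adjusted p of 0.0451 and 0.0203. The part of astrocyte content in the values of the 3 genes was not tested.

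The summed level of 14 oligodendrocyte precursor markers overlapped between groups, at 270.4 to 290.0 CPM in SED, 275 to 288 CPM in SUS and 269.5 to 285 CPM in SUS_LE. Pdgfra, the receptor that defines these precursors, was 61.1 to 65.8 CPM in SED, 52.9 to 63.5 CPM in SUS and 58.0 to 66 CPM in SUS_LE. Its log2 fold change in SUS against SED was −0.15 (SE 0.07, edgeR p 0.0473, adjusted p 0.372). The list itself was evenly split there, with 7 of the 14 markers higher and 7 lower in SUS (median log2 fold change −0.01). At an unadjusted edgeR p under 0.05, 1 was higher and 2 were lower (13.1% of all genes). Mature oligodendrocyte markers, 12 in all, summed to 3216 to 3438 CPM in SED, 2708 to 3090.5 CPM in SUS and 2786 to 3437 CPM in SUS_LE. SUS lay under SED without overlap for this sum, and Mbp, a myelin protein gene, had a log2 fold change of −0.23 (SE 0.08, edgeR adjusted p 0.267). All 12 were lower in SUS than in SED (median log2 fold change −0.20), 8 at an unadjusted edgeR p under 0.05 (13.1% of all genes). DESeq2 called 4 of them (3.35% of genes with an adjusted p). Between SUS_LE and SUS, 11 were higher and 1 lower in SUS_LE (median 0.13). There, 3 higher ones had an unadjusted edgeR p under 0.05 (13.7% of all genes), and DESeq2 called 3 (3.28%). The sum of 10 pericyte markers was 249 to 268 CPM in SED, 228 to 256 CPM in SUS and 259 to 275 CPM in SUS_LE, and Pdgfrb, which defines the list, overlapped in all groups (25.6 to 34.3 CPM in SUS, 28.8 to 29.3 CPM in SED). Of the 10 pericyte markers, 8 were lower and 2 higher in SUS than in SED (median log2 fold change −0.12). Between SUS_LE and SUS, 7 were higher and 3 lower in SUS_LE (median 0.16), and the sums did not overlap. At an unadjusted edgeR p under 0.05 there were 1 and 2 of them in these comparisons (13.1% and 13.7% of all genes).

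Summed markers of cells that carry perineuronal nets were not lowest in all SUS libraries. The sum of 11 parvalbumin interneuron markers was 952 to 997 CPM in SED, 941 to 1045 CPM in SUS and 1008 to 1039.8 CPM in SUS_LE. That list also holds genes of inhibitory neurons in general, so its sum does not read parvalbumin cells alone. Pvalb itself was 12.8 to 15.8 CPM in SED and 15.7 to 19 CPM in SUS, a log2 fold change of 0.28 (SE 0.11, edgeR p 0.0162, adjusted p 0.267). The sum of 8 CA2 markers was 268 to 290.3 CPM in SED, 290.2 to 317 CPM in SUS and 288 to 309.7 CPM in SUS_LE. Taken singly, 5 of the 8 CA2 markers were lower in SUS than in SED (median log2 fold change −0.12) and 5 were higher in SUS_LE than in SUS (median 0.08), whereas 8 of the 11 interneuron markers were higher in SUS than in SED (median 0.09). Cartilage markers, where aggrecan and Hapln1 are also made, summed to 11.5 to 15.7 CPM over all libraries, with 3 of 9 detected well enough to test.

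Choroid plexus content varied most, with summed markers of 4562 to 6611 CPM in SED, 164 to 8846 CPM in SUS and 243 to 2355 CPM in SUS_LE. SUS 1, SUS_LE 1 and SUS_LE 3 had the least, and meningeal fibroblast markers ranged from 279 to 633 CPM. Without those 3 libraries, which leaves 2 SUS libraries and 1 SUS_LE library, the log2 fold changes of SUS against SED were −0.38 for Vcan, −0.16 for Hapln1 and −0.15 for Ptprz1. In SUS_LE against SUS, Ptprz1 then had a log2 fold change of 0.10 (SE 0.07), and Vcan 0.31 (SE 0.15). The remaining lists overlapped between SED and SUS, except endothelial markers, at 313 to 322 CPM in SED, 279 to 309 CPM in SUS and 342 to 349 CPM in SUS_LE. Of these 10 markers, 3 were higher and 7 lower in SUS than in SED, with 0 at an unadjusted edgeR p under 0.05 (13.1% of all genes). In SUS_LE, 9 were higher and 1 lower than in SUS, 6 of the higher ones at that edgeR p (13.7%). All 10 were higher in SUS_LE than in SED, 4 at that edgeR p (6.64%).

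**Figure D5:**
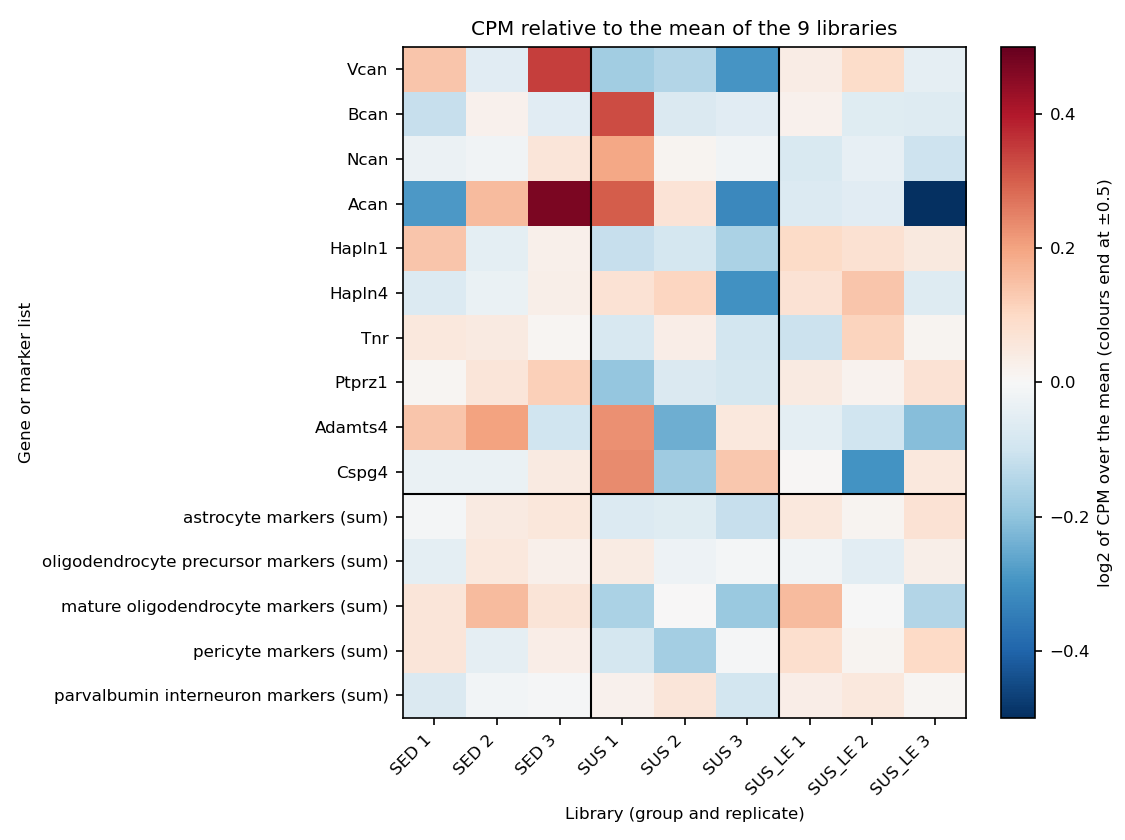
Log2 of each library's CPM over the mean of the 9 libraries, for the 10 members and for the summed markers of 5 cell types (below the line), with colours ending at ±0.5. Vcan, Hapln1 and Ptprz1 are blue in all 3 SUS libraries, as is the astrocyte sum (6 of whose 12 markers were higher in SUS than in SED). In SUS 1, Bcan, Ncan, Acan, Adamts4 and Cspg4 are red, and Hapln4 is faintly so.

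Genes around the members in the pathway gave 0 calls at the edgeR adjusted threshold in any comparison, where 0% of all genes were called. Among scaffold partners, 15 of 18 genes were tested. In SUS against SED, 2 had an unadjusted edgeR p under 0.05, both higher in SUS (13.1% of all genes, in either direction), and in SUS_LE against SUS 1 was higher and 1 lower (13.7% of all genes), so the list was near the background. Spock2, a testican proteoglycan, had 635.5, 667 and 663 CPM in the SED replicates, 757, 720.4 and 698 CPM in the SUS replicates and 662, 659.9 and 675 CPM in the SUS_LE replicates. All SUS libraries were above all others, the reverse of Vcan, with a log2 fold change of 0.15 (SE 0.05, edgeR adjusted p 0.248, DESeq2 adjusted p 0.0464) in SUS against SED. Fn1, fibronectin, was 122, 106.5 and 141 CPM in SUS_LE 1 to 3 and 92.6, 85.9 and 110.1 CPM in SUS 1 to 3, which overlap. Its log2 fold change in SUS_LE against SUS was 0.35 (SE 0.13, edgeR adjusted p 0.286, DESeq2 adjusted p 0.027).

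Enzymes that build chondroitin sulfate chains were tested for 25 of 26 genes, and in SUS against SED 3 were higher and 2 lower at an unadjusted edgeR p under 0.05 (13.1% of all genes). Between SUS_LE and SUS, 3 were higher and 1 lower in SUS_LE (13.7% of all genes). Dsel, an epimerase that turns chondroitin into dermatan sulfate, also had its lowest values in SUS, at 22.5, 19.6 and 21.4 CPM in SED 1 to 3, 15.3, 18.0 and 18.7 CPM in SUS 1 to 3, and 21.0, 23.8 and 23.6 CPM in SUS_LE 1 to 3. All SUS libraries were the lowest. Its log2 fold change was −0.29 (SE 0.10) in SUS against SED and 0.40 (SE 0.10) in SUS_LE against SUS, the second with an edgeR p of 0.000615 and an adjusted p of 0.116. B3gat3, which completes the linker that joins the chain to the core protein, went the other way, with a log2 fold change of 0.22 (SE 0.07, edgeR adjusted p 0.173) in SUS against SED. It stood at 47.5 to 51.7 CPM in SED and 55.2 to 62.6 CPM in SUS, without overlap.

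Of proteases, hyaluronidases and their inhibitors, 23 of 25 were tested, with 1 higher and 2 lower in SUS against SED and 2 higher and 1 lower in SUS_LE against SUS at an unadjusted edgeR p under 0.05. Those counts were near the 13.1% and 13.7% of all genes. Mmp16, a membrane-bound metalloprotease, was 18.1, 20.7 and 18.8 CPM in SUS_LE 1 to 3, above all SED (15.4 to 16.8 CPM) and SUS (14.4 to 16.7 CPM) libraries. Its log2 fold change in SUS_LE against SUS was 0.29 (SE 0.10, edgeR adjusted p 0.195). Mmp14, of the same protease class, had a log2 fold change of −0.35 (SE 0.13, edgeR adjusted p 0.264) there, with overlapping libraries.

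All 19 receptors and ligands were tested, with 2 higher and 1 lower in SUS against SED and 1 higher and 2 lower in SUS_LE against SUS at an unadjusted edgeR p under 0.05, again near the 13.1% and 13.7% of all genes. Ptprf, the LAR phosphatase related to the chondroitin sulfate receptor, was 48.9, 55.2 and 53.8 CPM in SUS_LE 1 to 3, under all SED and SUS libraries, with a log2 fold change of −0.22 (SE 0.08, edgeR adjusted p 0.212) against SUS.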

How the data were processed

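RNA of ventral hippocampus was sequenced from 9 mice, 1 library each, with total RNA taken by RNAiso Plus and CORALL V2 libraries, per the labels. The deposited files hold raw counts per gene symbol as whole numbers. The tools named in the submitters' processing notes are fastp, STAR and Salmon, with the build GRCm39. Versions, strand setting, molecular identifiers and any rounding of Salmon estimates are not given in the sources used here. Column headers number the exercised libraries differently from the labels, and the labels' numbers are used. Each library is labelled as its own mouse.

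Genes were kept by edgeR's expression filter, scaled by TMM and fitted with edgeR 4.0.16 (quasi-likelihood F test, robust, group as the only term, all 9 libraries; R 4.3.3). P values were adjusted over the 16106 tested genes. CPM used TMM-scaled library sizes. Alternatives were DESeq2 1.42.0, limma 3.58.1 voom, other scalings and filters, a replicate block, GC and length trends removed by offsets, a choroid plexus covariate, and each library left out. GC content and length came from GENCODE M21 (GRCm38) by symbol, for 91.3% of tested genes, and promoters and gene order from RefSeq GRCm38.p6. The code was tested on simulated data. No 2 libraries of a group were duplicates (chi-square per degree of freedom 2.70 to 14.6).

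The 10 members, the gene lists and the tests were chosen with earlier results of these data known. Named genes are the members, the 2 genes with the smallest p in each pathway list and the first gene of each cell type list. A gene that this rule names is not reported here.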

Additional observations from a re-analysis of the deposited data

How the results depend on the processing

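Over all alternatives, 700 values of the members in the 3 comparisons kept direction and were not newly called. Another 6 moved past the threshold in the same direction, and 41, none of them called, changed sign. The 700 include DESeq2 values without an adjusted p, which could not be called. Vcan and Ptprz1 kept their sign in SUS against SED and SUS_LE against SUS in every alternative run, as did Hapln1. Members past the threshold went from 0 to 1 in SUS against SED and among all groups with DESeq2 (Ptprz1, log2 fold change −0.18) and with no filter on low counts (Vcan, −0.36). In these 2 comparisons DESeq2 put 163 and 193 of 16106 genes past it, and no filter 297 and 695 of 26992. Leaving out each library gave 0 to 1 members in SUS against SED, in SUS_LE against SUS and among all groups, the 1 always by DESeq2. The DESeq2 runs with 1 member called 146 to 277 genes in SUS against SED and 430 in SUS_LE against SUS. Among all groups they called 62 to 371, each time out of 16322 to 16366 tested genes. DESeq2 without independent filtering, without each library or with trends removed, and the GC trend alone, were chosen after seeing the data.

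With the replicate block, 0 members passed in any comparison, as did 0 to 1 of the 16106 tested genes. The numbers were not taken to pair the mice, since not every same-numbered pair deviated together: the correlations were −0.123, 0.057 and −0.0993 for SUS and SED, 0.178, 0.18 and −0.0867 for SUS_LE and SUS, and −0.0261, −0.00155 and 0.0357 for SUS_LE and SED.

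Sign changes in SUS against SED were as follows. Without the 3 libraries lowest in Ttr, Bcan was −0.02, Ncan −0.01 and Cspg4 −0.01. The choroid plexus covariate gave Cspg4 −0.01. The GC trend alone removed gave Ncan −0.0044 and Cspg4 −0.02. GC and length trends removed gave Tnr 0.01, with edgeR and DESeq2. Leaving out each library gave −0.02 to 0.19 for Bcan, −0.01 to 0.10 for Ncan, −0.29 to 0.08 for Acan, −0.08 to 0.11 for Hapln4, −0.17 to 0.06 for Adamts4, −0.01 to 0.19 for Cspg4 and −0.21 to −0.15 for Ptprz1.

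In SUS_LE against SUS, Bcan was 0.01 without the libraries lowest in Ttr, 0.02 with GC and length trends removed (edgeR and DESeq2) and 0.01 with the GC trend alone, and Acan was 0.06 without the libraries lowest in Ttr. Leaving out each library gave −0.19 to 0.03 for Bcan, −0.04 to 0.15 for Hapln4, −0.0016 to 0.11 for Tnr and 0.13 to 0.18 for Ptprz1.

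In SUS_LE against SED, the choroid plexus covariate gave Bcan −0.19, Tnr 0.03 and Ptprz1 0.02. Without the libraries lowest in Ttr, Bcan was −0.01 and Tnr 0.08. GC and length trends removed gave Tnr 0.02 and Ptprz1 0.01, with edgeR and DESeq2. Leaving out each library gave −0.02 to 0.05 for Bcan, −0.01 to 0.08 for Hapln1, −0.08 to 0.03 for Tnr, −0.05 to 0.01 for Ptprz1 and −0.14 to 0.03 for Cspg4. The cause of these changes was not tested. Depth limits Acan most, at 2.38 to 4.87 CPM.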
